A study of Mus musculus with 8 samples.

Results

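Interferons are secreted alarm proteins, and the genes they switch on are called interferon-stimulated genes. Bulk RNA levels of 39 such genes, of the 24421 genes counted, were compared between photoconverted and control tumors. The genes came from a list of known interferon targets and were not picked by a threshold on their values, although earlier results of these data were known when the list was drawn up. They fell into 2 classes. The antiviral class held 27 genes that are typical targets of type I interferon: Ifit1, Ifit2, Ifit3, Isg15, Isg20, Mx1, Mx2, Oas2, Oas3, Oasl1, Oasl2, Rsad2, Usp18, Irf7, Irf9, Stat2, Ifih1, Dhx58, Ifi35, Ifi44, Ifitm3, Bst2, Zbp1, Eif2ak2, Rtp4, Parp14 and Xaf1. The GTPase and IRF class held 12 genes that respond strongly to interferon gamma: the guanylate-binding proteins (GBPs) Gbp2 to Gbp7, the immunity-related GTPases (IRGs) Igtp, Irgm1, Irgm2 and Iigp1, and the transcription factors Irf1 and Irf8. All 39 were present in the count table, and all 39 passed the expression filter that left 14468 genes for testing.

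The samples were 8 MC38 tumors, 4 per group, each grown under the skin of a 9-week-old female B6 Kaede mouse from 250000 injected cells of this mouse colon adenocarcinoma line. Kaede is a fluorescent protein that turns from green to red under violet light, and the cells of host origin carried it in both groups, so the groups differed in light exposure and not in genotype. On day 10, when tumors measured about 5 mm, those of the photoconverted group received 405-nm light for 3 min, those of the control group received none, and all were collected 5 h later. RNA came from whole tumors, which hold grafted cancer cells together with host stroma and immune cells, and cells that had been in a tumor at exposure were not separated from later arrivals. The comparison asks whether light exposure itself altered the RNA of the tumors, here for the interferon program.

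Type I interferons signal through a receptor made of IFNAR1 and IFNAR2 to a complex that includes STAT2 and IRF9 and binds a DNA element called the ISRE. Interferon gamma, made mainly by T cells and NK cells, signals through IFNGR1 and IFNGR2 to factors that bind a different element, the GAS. IRF1, itself a target of interferon gamma, also binds ISRE-like DNA, so the programs overlap: most antiviral genes respond to interferon gamma to some degree and most GBPs respond to type I interferon. In tumors, interferon gamma target genes are widely read as a trace of T cell and NK cell activity.

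Libraries of photoconverted tumors held 16735293 to 35844417 counts and those of controls 12576615 to 29439901. Rn45s, the gene entry for the precursor of ribosomal RNA, took between 2.70% and 9.65% of counts in 5 tumors. It took between 21.9% and 35.7% in photoconverted tumor 4, control tumor 2 and control tumor 4. Results are therefore also given for the 5 tumors with low shares (3 photoconverted, 2 control). The counts do not tell reads of the Rn45s precursor from reads of mature ribosomal RNA. The summed level of 7 epithelial markers, which would mark a colon carcinoma, was at most 5.37 CPM in any tumor and Cdx2 was at 0 counts in all 8 tumors, so epithelial identity was not visible in these libraries. Levels are given as CPM, the count relative to the library size after TMM correction for differences in RNA composition.

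Matches to the recognition elements of both pathways were more frequent in the control regions of these genes than in those of all genes. Promoter sequence from 250 bases before to 50 bases after a transcription start (RefSeq, GRCm38.p6) was at hand for 19 antiviral genes and 9 genes of the GTPase and IRF class. It was not at hand for Mx1, Mx2, Oas2, Usp18, Dhx58, Zbp1, Rtp4, Parp14, Gbp4, Gbp6 and Iigp1. The ISRE was searched as GAAA, any 2 bases and GAAA, or on the other strand as TTTC, any 2 bases and TTTC. The GAS was searched as TTC, any 3 bases and GAA, which reads the same on both strands, and matches of the elements may overlap. An ISRE match was found for 10 of the 19 antiviral genes (52.6%) and 7 of the 9 GTPase and IRF genes (77.8%), beside 3.99% of all 27025 genes with a promoter entry. A GAS match was found for 6 antiviral genes (31.6%) and 6 GTPase and IRF genes (66.7%), beside 9.55% of all genes, and both elements were found for 3 (15.8%) and 4 (44.4%), beside 0.614%. Neither element was found for Ifi44, Oasl1, Oasl2, Irf7, Irf9 and Xaf1. A match describes these letters and is not evidence of binding.

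Antiviral genes are represented by matches in genes whose levels are given in full further on. Each is shown with 10 bases on either side, 5′ to 3′ on the coding strand, with the matched ISRE in capitals.
Isg15 (chr4:156200877-156200906, minus strand): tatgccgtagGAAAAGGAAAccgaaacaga
Ifit1 (chr19:34640775-34640804, plus strand): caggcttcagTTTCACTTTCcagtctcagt
Ifit1 (chr19:34640794-34640823, plus strand): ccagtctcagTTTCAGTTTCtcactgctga
Ifit3 (chr19:34583363-34583392, plus strand): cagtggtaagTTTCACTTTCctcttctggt
Rsad2 (chr12:26456553-26456582, minus strand): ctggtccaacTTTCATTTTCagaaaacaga
Bst2 (chr8:71537583-71537612, minus strand): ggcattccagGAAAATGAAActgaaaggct
The matches lie 78 bases before the start site in Isg15, 104 and 85 bases before it in Ifit1, 156 in Ifit3, 120 in Rsad2 and 130 in Bst2. Further ISRE matches, not shown in capitals, lie 72 and 66 bases before the start site in Isg15, 122 in Ifit3 and 124 in Bst2. Any relation of these matches to the differences between groups was not tested.

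GTPase genes follow, all of them highest in photoconverted tumor 3, with the ISRE in capitals.
Gbp2 (chr3:142620594-142620623, plus strand): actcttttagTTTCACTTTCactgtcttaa
Gbp3 (chr3:142559989-142560018, plus strand): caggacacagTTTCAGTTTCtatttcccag
Gbp7 (chr3:142530273-142530302, plus strand): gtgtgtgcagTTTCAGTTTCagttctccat
Irgm1 (chr11:48871425-48871454, minus strand): tcaagaaataGAAACCGAAActgattctca
Igtp (chr11:58199512-58199541, plus strand): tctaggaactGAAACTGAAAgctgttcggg
Irgm2 (chr11:58214903-58214932, plus strand): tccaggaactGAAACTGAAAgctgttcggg
They lie 59 bases before the start site in Gbp2, 45 in Gbp3, 53 in Gbp7, 24 in Irgm1, 34 in Igtp and 64 in Irgm2. Further ISRE matches, not shown in capitals, lie 39 bases before it in Gbp3 and 30 in Irgm1. The stretches of Igtp and Irgm2, which are neighbors on chromosome 11, are nearly the same.

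In the same class, Irf1 and Irf8 held no ISRE match but held the GAS, which is in capitals in the following stretches, beside those of Igtp, Irgm2 and Gbp5.
Irf1 (chr11:53769914-53769942, plus strand): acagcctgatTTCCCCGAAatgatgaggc
Irf8 (chr8:120736177-120736205, plus strand): caaaagtgatTTCTCGGAAagagagcgct
Igtp (chr11:58199501-58199529, plus strand): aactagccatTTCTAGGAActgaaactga
Irgm2 (chr11:58214892-58214920, plus strand): aactagccatTTCCAGGAActgaaactga
Gbp5 (chr3:142496872-142496900, plus strand): tggccgttatTTCTCAGAAccaagcacag
They lie 90 bases before the start site in Irf1, 171 in Irf8, 45 in Igtp, 75 in Irgm2 and 52 in Gbp5. Irf8 held a further GAS match 153 bases before it, and the window of Gbp5 held 2 in all. In Igtp and Irgm2 the ISRE begins just after the GAS ends.

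Interferon-stimulated genes were expressed in every tumor of both groups, and the highest levels per length belonged to short antiviral genes. Levels of different genes were compared as CPM per kilobase of exon (GENCODE, GRCm38). Over all 8 tumors the mean was 771 CPM per kb for Ifitm3, a membrane protein that hinders virus fusion, 591 for Bst2, the tetherin that holds budding virions at the cell surface, and 241 for Isg15, a ubiquitin-like modifier. Rsad2 (viperin, 139.6 CPM per kb) and Ifit3 (131 CPM per kb) followed. Gbp2 (96.6 CPM per kb) and Igtp (74.6 CPM per kb) led the GTPase and IRF class. At the lower end stood Gbp5 (7.52 CPM per kb), Mx2 (7.39), Irf8 (6.68) and Gbp4 (5.01), so both classes spanned a wide range.

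**Figure D1:**
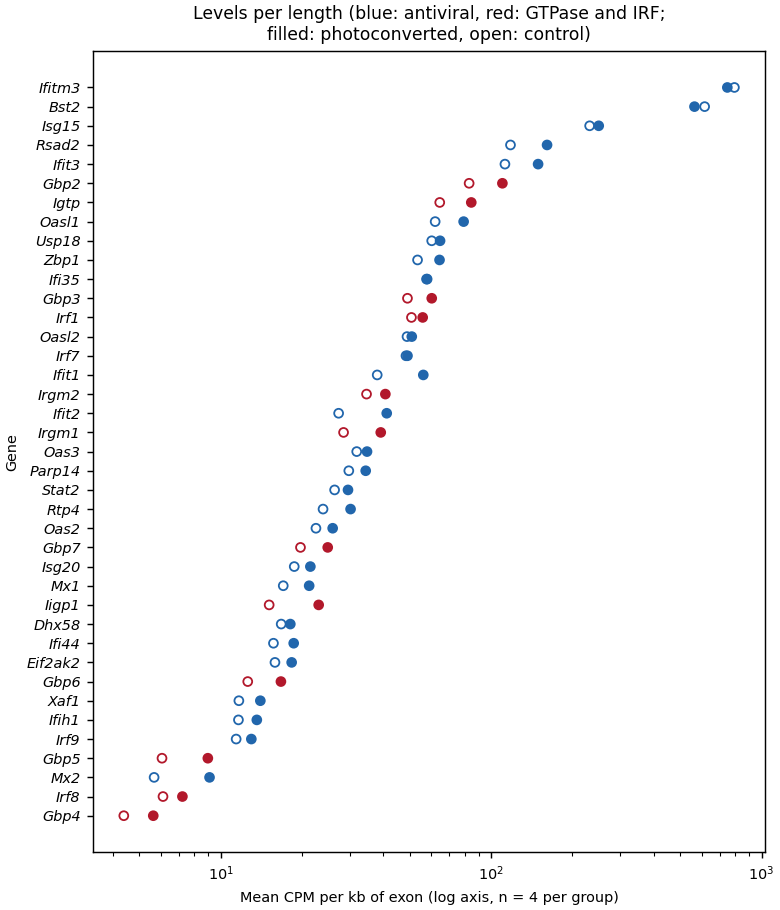
Mean CPM per kilobase of exon (log axis) of the 39 genes in 4 photoconverted (filled) and 4 control (open) tumors, antiviral class in blue and GTPase and IRF class in red. Ifitm3, Bst2 and Isg15 had the highest levels and Gbp4 the lowest, and the group means of each gene lay close together relative to the range between genes.

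Most of the 39 genes had a higher mean level in photoconverted tumors, by small amounts, and none passed the test. With edgeR's quasi-likelihood test adjusted over 14468 genes (Benjamini-Hochberg), 0 members and 0% of all genes tested were called at 0.05, with an adjusted p of 0.999 for each member. DESeq2 called 0 members and 19 of all genes (0.137%), and limma called 0 members and 0 of all genes. The log2 fold change (photoconverted over control) was above 0 for 37 of the 39 members, beside 46.8% of all genes tested, with a median of 0.25 beside -0.01 for all genes. At an unadjusted edgeR p under 0.05, 4 members were higher (Ifit1, Ifit3, Mx2 and Rsad2) beside 1.65% of all genes, and 0 were lower beside 0.574%. In either direction, the count was 6 with DESeq2, all 6 higher (3.06% of all genes, and 2.19% higher), and 6 with limma (1.81%), beside 4 (2.23%) here. It was 10 without photoconverted tumor 4 (5.26% of all genes), 7 without control tumor 3 (2.33%), 2 without photoconverted tumor 1 (1.4%), 2 without control tumor 2 (2.32%) and 1 without photoconverted tumor 3 (0.984%). Members are not independent of each other, and in bulk samples fewer cells of a type and less RNA per cell cannot be told apart.

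**Figure D2:**
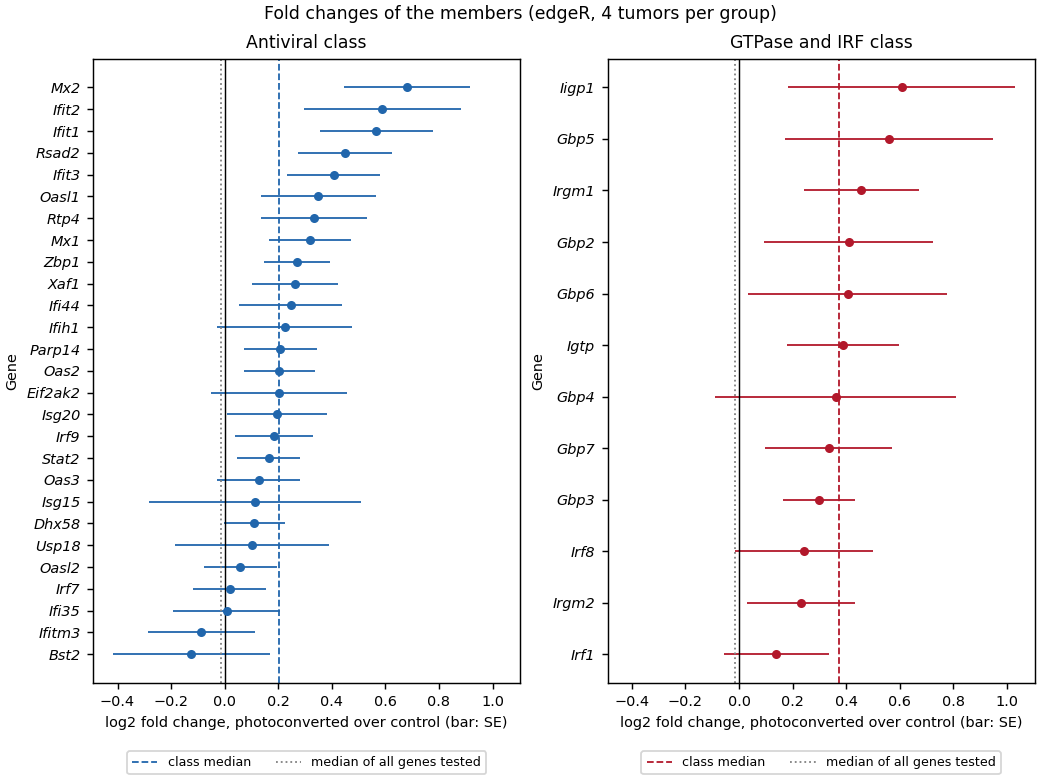
Log2 fold change of each gene (photoconverted over control, edgeR, bars ± SE, 4 tumors per group), with the median of each class (dashed) and of all genes tested (dotted). The points lay above 0 except for Ifitm3 and Bst2, and no gene passed the test after adjustment.

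In the antiviral class, 25 of 27 genes had a log2 fold change above 0, with a median of 0.20. The IFIT family, whose proteins bind foreign RNA and block its translation, and Mx2 were among the genes with the larger differences, whereas Isg15, Usp18, Irf7, Ifi35, Ifitm3 and Bst2 differed little on average.

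Ifit1 (GRCm38 chr19:34640871-34650009, plus strand) lay at 149.6, 128, 208 and 112 CPM in photoconverted tumors 1 to 4, against 99.2, 79.1, 124 and 101 CPM in control tumors 1 to 4. The photoconverted values reached from within the control range to well above it, with photoconverted tumor 3 on top, and the groups overlapped. Means were 149 ± 42.1 and 101 ± 18.5 CPM (SD, n = 4 each), and the log2 fold change was 0.57 (SE 0.21, unadjusted edgeR p = 0.0248, two-sided exact permutation p = 0.0571). With 4 tumors against 4 the smallest p such a permutation test allows is 0.0286. Its neighbors on chromosome 19, Ifit2 and Ifit3, gave the same picture. Ifit2 measured 159, 137, 243 and 107 CPM against 138, 80.4, 136 and 74.8 CPM in controls (log2 fold change 0.59, SE 0.29, exact p = 0.171). Ifit3 measured 251, 230.1, 332 and 229 CPM against 207, 155, 235 and 189 CPM (log2 fold change 0.41, SE 0.17, exact p = 0.0857). In each of the 3 genes photoconverted tumor 3 was the highest of all tumors. Of the 50-base stretches of Ifit3 exons, 51.2% also occur in its copy Ifit3b, so the reads of these genes cannot be assigned with certainty.

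Rsad2 (GRCm38 chr12:26442746-26456452, minus strand), the radical enzyme viperin that makes a chain-ending nucleotide, measured 684, 633, 819 and 658 CPM in photoconverted tumors and 383, 519, 498 and 646 CPM in controls. Control tumors 1 to 3 lay below all photoconverted tumors, and control tumor 4 lay among them. Means were 698 ± 82.8 and 512 ± 108 CPM (SD, n = 4 each), with a log2 fold change of 0.45 (SE 0.18, unadjusted edgeR p = 0.0298, exact p = 0.0571). Mx1 and Mx2 encode dynamin-like GTPases that trap viral particles, and both genes are known to carry inactivating mutations in common laboratory strains. Mx2 (GRCm38 chr16:97535308-97560900, plus strand) measured 32.4, 24.2, 48.3 and 26.7 CPM against 17.1, 18.3, 20.8 and 25.9 CPM, with the largest log2 fold change of the 39 genes in this fit, 0.68 (SE 0.24, unadjusted edgeR p = 0.0173, exact p = 0.0571). Control tumor 4 lay above photoconverted tumor 2, so these groups overlapped as well. Mx1 measured 73.7, 68.7, 106 and 73.8 CPM against 69.0, 68.1, 64.3 and 56.8 CPM, where photoconverted tumor 3 stood apart from the other 3 of its group.

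The oligoadenylate synthetase family, whose enzymes sense double-stranded RNA, differed by less. Log2 fold changes were 0.20 for Oas2 (SE 0.13), 0.13 for Oas3 (SE 0.15), 0.35 for Oasl1 (SE 0.22) and 0.06 for Oasl2 (SE 0.14). Oasl1, a restrainer of Irf7 translation, measured 178, 184, 228 and 236 CPM against 118, 149.6, 143 and 237 CPM, with the highest value of all tumors in control tumor 4. The Oasl2 estimate was below 0 without photoconverted tumor 4 or without control tumor 1.

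Isg15 and Usp18, the modifier and the protease that removes it and also dampens type I receptor signaling, varied widely within both groups. Isg15 (GRCm38 chr4:156199424-156200818, minus strand) measured 127, 194, 148 and 288 CPM in photoconverted tumors and 81.5, 209, 121 and 289 CPM in controls. Control tumors 2 and 4 and photoconverted tumor 4, the libraries with high Rn45s shares, held the 3 highest values, and control tumor 1 held the lowest. The log2 fold change was 0.11 (SE 0.40, exact p = 0.686) and was below 0 without photoconverted tumor 4 (-0.17), control tumor 1 (-0.13) or control tumor 3 (-0.03). Among the 5 tumors with low Rn45s shares it was 0.63 for Isg15 and 0.35 for Usp18, neither called. Usp18 had the same 3 libraries on top, with 136, 174, 152 and 261 CPM against 104, 186, 138 and 245 CPM (log2 fold change 0.10, SE 0.29), and its estimate was -0.13 without photoconverted tumor 4 and -0.07 without control tumor 1.

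Membrane restriction factors were the exception in direction. Bst2 (GRCm38 chr8:71534255-71537456, minus strand) measured 426, 461, 421 and 733 CPM against 379, 641, 384 and 822 CPM (log2 fold change -0.12, SE 0.29, exact p = 0.886). Ifitm3 measured 454, 486, 472 and 615 CPM against 398, 718, 462 and 575 CPM (log2 fold change -0.09, SE 0.20). In both genes the 3 libraries with high Rn45s shares were again the highest, and among the 5 tumors with low shares the log2 fold changes were 0.19 and 0.13, so the direction below 0 did not hold there.

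Genes that carry the type I signal or sense viral RNA differed little between groups. Irf7, the factor that amplifies interferon production, measured 153, 169.9, 188 and 229.9 CPM against 182, 191, 179.6 and 179.9 CPM (log2 fold change 0.02, SE 0.14). Its controls lay within a narrow band, and the photoconverted tumors spread to both sides of it. Log2 fold changes were 0.18 (SE 0.14) for Irf9 and 0.16 (SE 0.12) for Stat2, the DNA-binding and activating parts of the ISRE complex. For the RNA helicases they were 0.22 (SE 0.25) in Ifih1, the sensor MDA5, and 0.11 (SE 0.11) in Dhx58, its modulator LGP2. The Irf7 estimate was -0.09 among the 5 tumors with low Rn45s shares.

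The remaining antiviral genes spanned log2 fold changes from 0.01 to 0.33. Zbp1, a sensor of Z-form nucleic acid that can start necroptosis, measured 216, 210.4, 260.0 and 224 CPM against 179, 166, 211 and 198 CPM (log2 fold change 0.27, SE 0.12, exact p = 0.0571). Only control tumor 3 reached into the photoconverted range. The others were Rtp4 (0.33, SE 0.20), the apoptosis factor Xaf1 (0.26, SE 0.16), Ifi44 (0.25, SE 0.19), the ADP-ribosyltransferase Parp14 (0.21, SE 0.14), the kinase PKR encoded by Eif2ak2 (0.20, SE 0.25), the exonuclease Isg20 (0.19, SE 0.19) and Ifi35 (0.01, SE 0.20). Ifi44 and Eif2ak2 were at -0.01 and -0.06 among the 5 tumors with low Rn45s shares, and the Ifi35 estimate was below 0 without photoconverted tumor 4, control tumor 1 or control tumor 3.

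In the GTPase and IRF class, 12 of 12 genes had a log2 fold change above 0, with a median of 0.37, beside 46.8% of all genes. The median was 0.38 for the 6 GBPs, large GTPases that coat and break open pathogen vacuoles, and 0.42 for the 4 IRGs, which share that task. The median was larger than in the antiviral class, except without control tumor 4 (0.22 against 0.25), and the scatter between tumors of one group was larger too. The median SD within groups on the log2 scale was 0.41, beside 0.30 for the antiviral class and 0.31 for all genes tested, and the difference between the classes was not tested.

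Gbp3 was the only member whose groups did not overlap, beside 0.684% of all genes that were higher without overlap. The gene (GRCm38 chr3:142560026-142573209, plus strand) measured 200.3, 187, 217 and 185 CPM in photoconverted tumors and 128, 167, 183 and 163 CPM in controls. The lowest photoconverted tumor exceeded the highest control by a narrow margin. Means were 197 ± 14.8 and 160.3 ± 23.1 CPM (SD, n = 4 each), with a log2 fold change of 0.30 (SE 0.13, unadjusted edgeR p = 0.0507, exact p = 0.0286). Gbp2, its neighbor on chromosome 3, measured 304, 265, 394 and 146 CPM against 187, 239.9, 278 and 130.5 CPM (log2 fold change 0.41, SE 0.31). The number 4 tumors, both libraries with high Rn45s shares, were the lowest of their groups. Gbp5, a GTPase that promotes inflammasome assembly, measured 74.1, 50.1, 87.1 and 26.9 CPM against 46.1, 31.4, 60.8 and 23.0 CPM (log2 fold change 0.56, SE 0.39). Gbp4 varied most of the 39 genes, with 43.0, 37.9, 71.3 and 16.9 CPM against 39.1, 31.7, 47.2 and 13.6 CPM (log2 fold change 0.36, SE 0.45). The highest tumor exceeded the lowest 5.26-fold, and without photoconverted tumor 3 the Gbp4 estimate was -0.01. Exons of Gbp4 overlap those of Gbp8 and Gbp9 on the same strand, so its counts are less certain. Gbp6 (0.41, SE 0.37) and Gbp7 (0.33, SE 0.24) had similar log2 fold changes, although 70.7% of the 50-base stretches of Gbp6 exons occur in other genes, so its counts are uncertain.

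Among the IRGs, Iigp1, which attacks the membranes of intracellular parasites, measured 158, 116, 208 and 55.4 CPM in photoconverted tumors and 107, 73.3, 129 and 42.8 CPM in controls. The number 4 tumors, with high Rn45s shares, were the lowest of each group and the number 3 tumors the highest. Means were 134 ± 64.8 and 88.1 ± 37.9 CPM (SD, n = 4 each), with a log2 fold change of 0.61 (SE 0.42, unadjusted edgeR p = 0.185, exact p = 0.343). The regulatory IRGs, which keep the effector IRGs off the cell's own membranes, had their highest value in photoconverted tumor 3 as well, and control tumor 3 was the highest control. Irgm1 measured 251, 200.3, 295 and 163 CPM against 167, 132, 216 and 147 CPM (log2 fold change 0.46, SE 0.22). Igtp, also known as Irgm3, measured 182, 156, 227 and 119 CPM against 121, 128, 165 and 108 CPM (log2 fold change 0.39, SE 0.21), and Irgm2 had a log2 fold change of 0.23 (SE 0.20). Igtp and Irgm2 overlap on the same strand of chromosome 11, and 11.8% of the 50-base stretches of Igtp exons occur in Irgm2.

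The transcription factors of the class had smaller log2 fold changes than most of its GTPases. Irf1, a primary target of interferon gamma, measured 235, 201, 294 and 159 CPM against 181, 233, 223 and 171 CPM (log2 fold change 0.14, SE 0.20, exact p = 0.600). The estimate was -0.03 without photoconverted tumor 3. Irf8, a factor of myeloid and dendritic cell development as well as an interferon gamma target, measured 46.0, 51.2, 71.4 and 35.3 CPM against 39.7, 57.3, 47.7 and 28.1 CPM (log2 fold change 0.24, SE 0.26). Neither factor separated the groups.

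**Figure D3:**
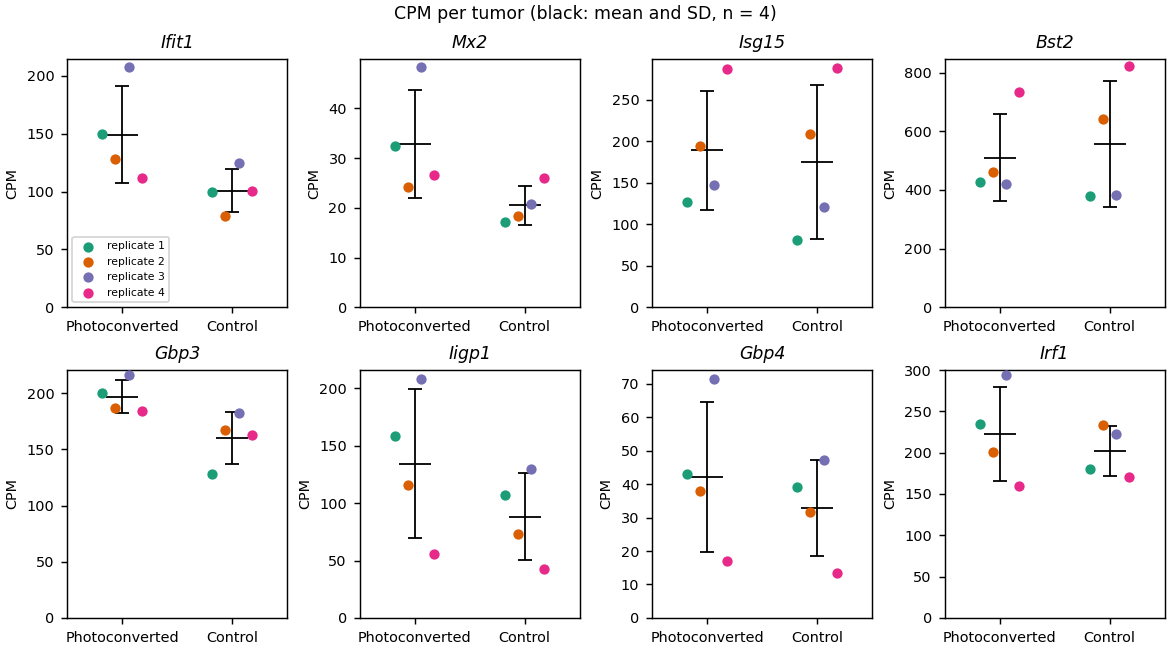
CPM of 8 of the 39 genes in each tumor (points, linear axes from 0), with the mean and SD of each group (n = 4). Gbp3 alone showed no overlap between groups, whereas Isg15, Bst2 and Irf1 overlapped over most of their range.

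The replicate numbers of the labels ran from 1 to 4 in both groups, and the labels state no pairing. Deviations from group means correlated across genes between tumors of the same number, but weakly for number 2 (r = 0.597, 0.107, 0.407 and 0.623). Values were therefore also compared within same-numbered pairs, a pairing inferred from these same data. Rn45s shares were also alike in pairs 1 (4.14% and 2.70%), 3 (4.60% and 4.70%) and 4 (21.9% and 23.2%). They were not alike in pair 2 (9.65% and 35.7%), and their part in the correlations was not tested. Of the 39 members, 25 were higher in the photoconverted tumor in 4 of 4 pairs, beside 7.2% of all genes tested, and 0 were lower in 4 of 4, beside 7.19%. The 25 comprised 15 antiviral genes and 10 of the GTPase and IRF class, namely all 6 GBPs and all 4 IRGs. In edgeR with the replicate number as a block, 20 members were higher at an unadjusted p under 0.05, beside 4.38% of all genes, against 4 members without the block, and 0 were lower, beside 1.63%. They were 10 antiviral genes and the same 10 GTPases. None passed after adjustment, with 0% of all genes called, and the smallest adjusted p of a member was 0.396, for Iigp1 (unadjusted p = 3.9e-04, edgeR). The next GTPase was Gbp5 (log2 fold change 0.53, SE 0.11 with the block, against an SE of 0.39 without it). In Gbp5 each photoconverted tumor exceeded the control of its own number although the groups overlapped.

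Class medians of the log2 ratio within pairs 1 to 4 were 0.18, 0.30, 0.26 and 0.10 for the antiviral class, with 22, 20, 27 and 23 of 27 genes higher. They were 0.47, 0.27, 0.48 and 0.23 for the GTPase and IRF class, with 12, 10, 12 and 11 of 12 genes higher. Of all genes tested, between 48.7% and 50.8% were higher in a pair. The exceptions in the GTPase and IRF class were Irf1 and Irf8 in pair 2 and Irf1 in pair 4, and every GTPase was higher in every pair. Among antiviral genes the widest scatter was in pair 2, from Rtp4, Ifit2 and Ifih1 well above 0 to Ifitm3 and Bst2 well below it.

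**Figure D4:**
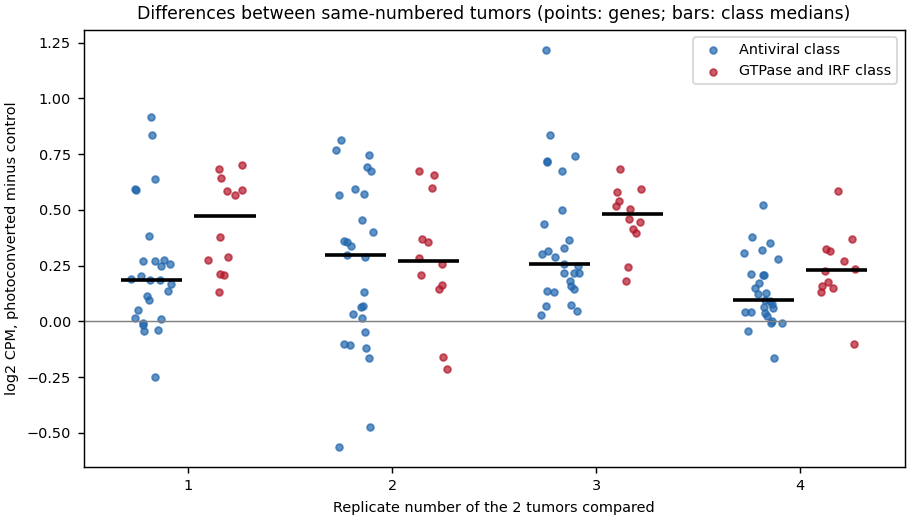
Log2 CPM difference between the photoconverted and the control tumor of the same replicate number, one point per gene and a bar for each class median, antiviral class in blue and GTPase and IRF class in red. Class medians lay above 0 in each of the 4 pairs, between 0.10 and 0.48.

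Photoconverted tumor 3 carried the highest interferon-stimulated gene levels of the series. It was the highest tumor for 28 of the 39 members, 12 of 12 in the GTPase and IRF class and 16 of 27 in the antiviral class, beside 14.1% of all genes tested. Relative to the mean of each gene over 8 tumors, photoconverted tumors 1 to 4 had a median log2 CPM of 0.35, 0.09, 0.64 and -0.38 over the GTPase and IRF class, and control tumors 1 to 4 had one of -0.16, -0.15, 0.23 and -0.65. Tumor 4 of both groups thus stood lowest, and control tumor 4 was the lowest tumor for 9 of the 12 genes, beside 16.4% of all genes. Both number 4 tumors were libraries with high Rn45s shares (21.9% and 23.2%), and the part of this in their low levels was not tested. For the antiviral class the medians were 0.07, 0.02, 0.31 and 0.15 in photoconverted tumors and -0.19, -0.26, -0.03 and 0.01 in controls. The number 4 tumors were not low in this class, and the lowest tumor was control tumor 1 for 11 genes and control tumor 2 for 10 genes. Without photoconverted tumor 3, the median log2 fold change was 0.15 for the antiviral class and 0.18 for the GTPase and IRF class, with 25 of 27 and 10 of 12 genes above 0. Without photoconverted tumor 4 or without control tumor 3 the median of the GTPase and IRF class was 0.55, beside 0.23 and 0.29 for the antiviral class. Without control tumor 4 it was 0.22, beside 0.25 for the antiviral class, so the order of the classes turned.

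**Figure D5:**
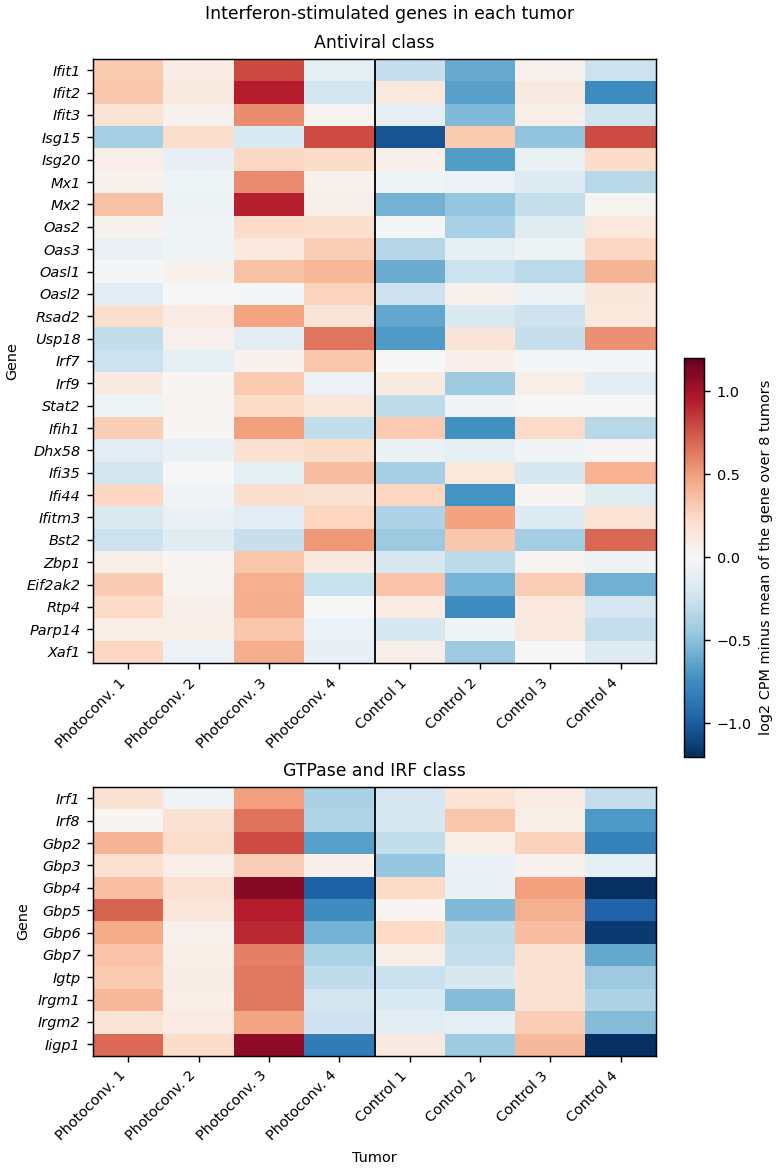
Log2 CPM of each gene in each tumor minus the mean of that gene over 8 tumors, antiviral class above and GTPase and IRF class below, with colors saturating at the ends of the scale. Photoconverted tumor 3 was the highest tumor for 28 of the 39 genes, and the number 4 tumors stood low in the GTPase and IRF class.

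Libraries with high Rn45s shares stood apart in antiviral genes about as often as in all genes. In 6 antiviral genes (Isg15, Oasl2, Usp18, Ifi35, Ifitm3 and Bst2; 22.2%) all 3 libraries with high shares lay above the other 5, as they did in 23.4% of all genes tested. Exon lengths of these 6 genes had a median of 1315 bases, beside 3776 for the antiviral class. In 6 other antiviral genes (Ifit2, Irf9, Ifih1, Eif2ak2, Rtp4 and Xaf1; 22.2%) and 6 of 12 GTPase and IRF genes (Gbp4, Gbp5, Gbp6, Gbp7, Irgm1 and Iigp1; 50%) all 3 lay below the other 5, beside 21% of all genes. Among the 5 tumors with low shares, 24 of 27 antiviral genes and 12 of 12 GTPase and IRF genes had a log2 fold change above 0, beside 50.5% of all genes, with medians of 0.19 and 0.37. In that fit 0 members and 0.275% of all genes were called by edgeR, the smallest adjusted p of a member was 0.217 (Rsad2, unadjusted p = 0.00343), and 6 members were higher at an unadjusted p under 0.05, beside 6.31% of all genes. This fit rests on 3 tumors against 2.

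Markers of immune cells that make or answer interferon did not separate the groups. The summed level of 8 T cell markers was 25.3, 17.3, 32.1 and 12.6 CPM in photoconverted tumors 1 to 4, against 23.6, 26.97, 29.1 and 6.59 CPM in control tumors 1 to 4. It was highest in photoconverted tumor 3 and lowest in control tumor 4, as in the GTPase and IRF class. In pair 2, however, the control had the higher T cell sum, unlike for the GTPases. The sum of 7 NK cell markers ranged from 41.1 to 68.5 CPM in photoconverted tumors and from 34.3 to 75.2 CPM in control tumors, and that of 7 plasmacytoid dendritic cell markers, which mark the main producers of type I interferon, from 38.3 to 61.0 CPM in photoconverted tumors and from 35.4 to 60.3 CPM in control tumors. Macrophage markers were at 789.6, 681, 1187 and 549 CPM and 1022, 995, 845 and 417 CPM, again with the highest sum in photoconverted tumor 3 and the lowest in control tumor 4. In pairs 1 and 2 the control had the higher macrophage sum. Of the tested markers, 3 of 8 for T cells, 3 of 7 for NK cells, 3 of 7 for plasmacytoid dendritic cells and 3 of 8 for macrophages had a log2 fold change above 0, and none was called. By contrast, 7 of 7 neutrophil markers (summed range 47.0 to 141 CPM in photoconverted tumors and from 37.8 to 61.2 CPM in control tumors) and 7 of 7 skeletal muscle markers (209 to 1795 CPM in photoconverted tumors and from 186 to 561 CPM in control tumors) had a log2 fold change above 0, none called. The sum of B cell markers was at most 7.05 CPM. That of skin keratinocyte markers was 16.5 CPM in photoconverted tumor 2 and 18.6 CPM in photoconverted tumor 3, and at most 3.06 CPM in the other 6 tumors. Photoconverted tumor 3 had the highest sum of neutrophil, muscle and keratinocyte markers, and the part of any of these cell types in the levels of interferon-stimulated genes was not tested.

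Of the ligands, Ifng was the only one of 21 listed interferon genes that passed the expression filter. It was counted 91, 31, 74 and 6 times in photoconverted tumors 1 to 4, against 44, 5, 27 and 3 times in control tumors 1 to 4, or 2.28, 0.979, 2.92 and 0.410 CPM against 1.26, 0.535, 0.960 and 0.183 CPM. Each photoconverted tumor exceeded the control of its number. The number 4 tumors, both with high Rn45s shares, were lowest in both groups, as for the GTPases other than Gbp3 and Irgm1. The log2 fold change was 1.10 (SE 0.64, unadjusted edgeR p = 0.12, exact p = 0.257), and with the block the unadjusted edgeR p was 0.00559 (adjusted p = 0.611). Ifnb1 was counted 8, 13, 3 and 3 times against 6, 1, 7 and 3 times and Ifna4 4, 2, 5 and 0 times against 7, 0, 4 and 1 times, which is too few to compare.

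Receptor genes differed by little, with 4 of 5 above 0 in all tumors and 2 of 5 in the tumors with low Rn45s shares. Log2 fold changes were 0.05 for Ifnar1 (SE 0.19), 0.21 for Ifnar2 (SE 0.14), -0.06 for Ifngr1 (SE 0.19), 0.11 for Ifngr2 (SE 0.17) and 0.04 for Il10rb (SE 0.20), a subunit of the lambda interferon receptor. Of the signaling genes downstream, Stat3, a factor mainly of interleukin-6 type cytokines, had a log2 fold change of 0.40 (SE 0.13, exact p = 0.0286) and the kinase gene Jak2 one of 0.37 (SE 0.26). Of 13 genes that sense nucleic acid and induce interferon 8 were above 0, with the smallest p for Mb21d1, which encodes the DNA sensor cGAS (0.35, SE 0.11, exact p = 0.0286), Mavs (-0.20, SE 0.11) and Tmem173, the gene of STING (0.21, SE 0.14). Of 5 restraining genes 4 were above 0, led by Socs3 (0.84, SE 0.25, exact p = 0.0571), which inhibits STAT3 signaling, then Irf2 (0.19, SE 0.17) and Ptpn2 (0.16, SE 0.19). None of these genes was called.

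Other interferon targets, listed beside the 39, lay mostly in the same direction. Of 38 further antiviral genes 35 had a log2 fold change above 0 (median 0.23), with the smallest p for Ifit3b (0.38, SE 0.17), Ifi27 (-0.36, SE 0.17) and Helz2 (0.33, SE 0.16). Among the 5 tumors with low Rn45s shares, 30 of these 38 were above 0 (median 0.10). Of 12 further GTPases all 12 were above 0 (median 0.34), among them Ifi47 (0.36, SE 0.21), Tgtp1 (0.55, SE 0.39) and its near copy Tgtp2 (0.54, SE 0.41). Of 20 further interferon gamma targets, mostly of antigen processing, 13 were above 0 (median 0.24). Cxcl10, a chemokine that draws CXCR3-bearing T cells, measured 473, 388, 611 and 372 CPM in photoconverted tumors and 251, 274, 312 and 318 CPM in controls (log2 fold change 0.68, SE 0.18, unadjusted edgeR p = 0.00418, exact p = 0.0286). All photoconverted tumors lay above all controls, as they did in 0.684% of all genes tested. Without any 1 tumor the log2 fold change of Cxcl10 stayed between 0.51 and 0.76. The gene is named because it had the smallest edgeR p of its list, so these values were favored by that choice. The related chemokine Cxcl11 (1.12, SE 0.47) and Cd274, the gene of the checkpoint ligand PD-L1 (0.59, SE 0.30), overlapped between groups. None of these genes was called after adjustment either (edgeR adjusted p = 0.999 each).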

How the data were processed

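RNA of 8 whole tumors was sequenced on a NovaSeq, with a stranded total RNA kit that the labels and the methods of the study name differently. The authors deposited counts of reads per gene, unnormalized and listed by symbol, and a table of normalized signal, which equals the counts divided by size factors. The submitters' processing notes list Trim Galore, HISAT2, featureCounts and DESeq2 with the mm10 build; versions and the strand setting of counting are not given in the sources used here. Without it, reads of Irf1, Irf7, Dhx58, Usp18, Oasl1, Ifi35, Eif2ak2 and Gbp2 cannot be told apart from those of genes on the opposite strand where they overlap. Exons of Irf9, Rtp4, Parp14, Gbp4, Gbp6, Gbp7, Igtp and Irgm2 overlap those of other genes on the same strand.

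Counts of 24421 genes were tested with edgeR 4.0.16 in R 4.3.3 (TMM, filterByExpr, quasi-likelihood test, Benjamini-Hochberg over 14468 genes, threshold 0.05). SE is the log2 fold change divided by the square root of F. Log2 CPM used a prior count of 2. Single genes were also tested by two-sided exact permutation of mean log2 CPM over all 70 arrangements. Classes and lists were described by counts and medians. All members were named, with every tested ligand and receptor and up to 3 genes of the smallest p of each other list, apart from an item that is not reported here. Members and lists were chosen with earlier results of these data known.

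Replicate numbers come from the labels, which state no pairing. Deviations from group means correlated with r = 0.597, 0.107, 0.407 and 0.623 across genes between tumors numbered 1 to 4. On these values alone the numbers were taken to pair the tumors, although r = 0.107 was weak. The mean correlation between different numbers was -0.134. Deviations cancel out over the tumors of a group, so a positive mean between same numbers brings a negative one between different numbers by construction. The value of -0.134 therefore cannot decide whether the numbers pair the tumors. No libraries of a group differed by as little as sampling noise. Alternatives were DESeq2 1.42.0, limma 3.58.1 on log2 of the normalized values plus 1, other scalings and filters, the replicate block, Rn45s settings, and each tumor left out. On simulated counts of 14468 genes with 200 changed 4-fold, edgeR recovered 175 with 6 false calls, DESeq2 185 with 35 and limma 175 with 4. Members differed by far less (log2 fold change at most 0.68), so this recovery does not tell how often differences of their size would be called. The simulated counts were drawn independently for each gene, without differences tied to Rn45s shares or replicate numbers. Total counts from 12576615 to 35844417 limit what can be said of sparsely counted genes such as Ifng, and p-values measure the spread between these tumors.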

Additional observations from a re-analysis of the deposited data

Results flagged for a closer look

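In 3 groups of 4 tumors, 1 tumor stood apart from the other 3 by Dixon's criterion, of 82 groups examined, where chance gives about 1 in 20 (4.1 expected). Mx1 was at 105.7 CPM in photoconverted tumor 3, with the nearest tumor of its group at 73.8 CPM. Stat2 was at 133 CPM in control tumor 1, with the nearest at 162 CPM. Bst2 was at 733 CPM in photoconverted tumor 4, a library with a high Rn45s share, with the nearest at 461 CPM.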

How the results depend on the processing

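No member was called under any of the 19 alternatives computed for single genes, with a smallest adjusted p of 0.217 in the 5 tumors with low Rn45s shares. Of all genes, 19 were called with DESeq2 and 42 in those 5 tumors, and leaving out 1 tumor gave 0 to 11 (11 without photoconverted tumor 4). Members with an unadjusted p under 0.05 (4 in the reported fit) numbered 20 with the replicate block, 12 with the log2 Rn45s share as covariate, and 1 to 10 when 1 tumor was left out. The share of all genes moved as well, from 2.23% to 6.01% with the block, 6.98% with the covariate and 0.984% to 5.26% with 1 tumor left out. The block changed no call after adjustment. The direction of 28 members held under all 19 alternatives, and 719 of 741 values kept it. The 22 that turned belonged to 11 members. In the 5 tumors with low Rn45s shares, the log2 fold change was -0.0856 for Irf7, -0.0121 for Ifi44, -0.0564 for Eif2ak2, 0.13 for Ifitm3 and 0.19 for Bst2. With the Rn45s covariate it was 0.00573 for Ifitm3 and 0.00827 for Bst2. When 1 tumor was left out it ranged from -0.17 to 0.47 for Isg15, from -0.0283 to 0.12 for Oasl2, from -0.13 to 0.34 for Usp18, from -0.10 to 0.10 for Irf7, from -0.13 to 0.17 for Ifi35, from -0.21 to 0.0822 for Ifitm3, from -0.35 to 0.12 for Bst2, from -0.0251 to 0.27 for Irf1 and from -0.0121 to 0.62 for Gbp4. The cause was not tested. Class medians stayed above 0 under every alternative run, including Irf7 and Irf9 moved to the GTPase and IRF class. The order of the classes turned only without control tumor 4. The count of members without overlap between groups was 1 also on the deposited normalized values, an alternative chosen after seeing the data.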
